A study of Mus musculus with 2 samples.

Results

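The genes examined were Disc1 and 8 genes that encode proteins reported to bind it or that lie beside it: Tsnax, Ndel1, Nde1, Pafah1b1, Pde4b, Pde4d, Gsk3b and Pcm1. They are 9 of the 32285 genes in the count tables, were chosen by symbol and were all found. Brain cells that were CD45low and CD11b+ had been sorted from 23-week-old male mice, either homozygous for the Disc1 locus impairment allele (Disc1 LI/LI, called LI below) or wild-type littermates from heterozygous breeding (Disc1 WT/WT, called WT below). The allele is carried in every tissue, and the brains of 6 mice per genotype were pooled, so that each genotype has 1 library and no replicate. No test between genotypes was therefore made, and every interval below is a 95% interval for counting error only, which leaves out the spread between mice, sorts and libraries. Levels are unique molecular identifiers (UMIs, counted transcript molecules) per 1000000 UMIs of the same cells (CPM), and differences are log2 ratios of these levels.

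DISC1 is a scaffold protein of the centrosome, microtubules and mitochondria, and it is studied most in neurons, where it takes part in migration and signalling. NDEL1 and NDE1 are related adaptors that join LIS1, the product of Pafah1b1, to the motor dynein. PDE4B and PDE4D break down cAMP, GSK3B is a kinase of the Wnt pathway that DISC1 inhibits, and PCM1 builds the centriolar satellites around the centrosome. TSNAX is the partner of the RNA-binding protein translin, and its gene lies directly upstream of Disc1.

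The libraries held 7032 WT and 7817 LI barcodes in which 200 genes or more were detected and mitochondrial UMIs did not exceed 10%, with medians of 4234.5 and 4566 UMIs. Cells were classed one by one. Microglia had at least 0.5% of UMIs from P2ry12, Gpr34, Tmem119, Siglech, Fcrls and Olfml3, with under 1% from S100a8 and S100a9, neutrophils had at least 3% from S100a8 and S100a9, and the rest were other cells. Although the labels call the sorted cells microglia, this class made up 87.9% of WT and 24.9% of LI cells, neutrophils 1.65% and 46.3%, and other cells 10.5% and 28.7%. The cell mixture and the genotype cannot be told apart over whole libraries, and so the levels were compared within classes. The 8 microglia markers outside the rule summed to 35901 CPM in WT and 40000 in LI microglia, but also to 7248 in WT and 1670 in LI neutrophils and to 11658 in WT and 2502 in LI other cells, with all 8 detected in each class. The 9 neutrophil markers outside the rule summed to 84155 in WT and 98393 in LI neutrophils, and to 157 in WT and 731 in LI microglia. Csf3r alone gave 143 of the 157 in WT and 123 of the 731 in LI microglia. The other neutrophil markers were each higher in LI than in WT microglia, with Retnlg at 4.19 in WT and 170 in LI. The libraries shared 12 barcodes, which held 1 WT and 0 LI UMIs of Disc1 and 0 UMIs of Tsnax.

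The promoters of Disc1 and of the paired adaptors Ndel1 and Nde1 are shown for what their levels did. Disc1 differed between the libraries, and Ndel1 was higher in neutrophils than in microglia while its relative Nde1 was not. The windows run from 250 bases before to 50 bases after the transcript start and come from RefSeq (GRCm38.p6). Capitals mark matches on either strand to CACTTCC (an ETS-type motif), TGACG (a cAMP response element core), CCAAT (the CCAAT box) or TATAAA (the TATA box).
Disc1, chr8:125053945-125054244, plus strand: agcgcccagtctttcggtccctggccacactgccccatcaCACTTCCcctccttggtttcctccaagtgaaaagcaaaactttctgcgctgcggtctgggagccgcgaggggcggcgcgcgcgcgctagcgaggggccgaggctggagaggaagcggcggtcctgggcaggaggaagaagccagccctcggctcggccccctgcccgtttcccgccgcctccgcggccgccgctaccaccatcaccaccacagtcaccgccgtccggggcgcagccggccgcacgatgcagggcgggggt
Ndel1, chr11:68853086-68853385, minus strand: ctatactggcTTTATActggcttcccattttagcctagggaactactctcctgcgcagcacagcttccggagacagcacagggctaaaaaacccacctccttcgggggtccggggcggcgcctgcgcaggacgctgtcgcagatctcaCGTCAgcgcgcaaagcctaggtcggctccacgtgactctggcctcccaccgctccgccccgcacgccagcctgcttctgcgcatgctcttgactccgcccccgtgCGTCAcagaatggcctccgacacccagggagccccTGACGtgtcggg
Nde1, chr16:14163025-14163324, plus strand: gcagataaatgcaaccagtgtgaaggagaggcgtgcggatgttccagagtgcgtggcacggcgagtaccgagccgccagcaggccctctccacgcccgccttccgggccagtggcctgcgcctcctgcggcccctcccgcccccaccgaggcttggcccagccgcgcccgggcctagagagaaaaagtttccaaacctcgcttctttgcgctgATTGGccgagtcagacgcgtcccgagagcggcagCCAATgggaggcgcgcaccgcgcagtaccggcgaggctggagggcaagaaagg
A match to CACTTCC was present in 11.0%, to TGACG in 20.8%, to CCAAT in 37.4% and to TATAAA in 13.6% of 32851 mouse promoter windows of the same length. The Disc1 window held 1 CACTTCC match and 33 CG pairs, Nde1 30 and Ndel1 25, against a median of 7 CG pairs over all windows. Ndel1 had 3 TGACG matches and 1 TATAAA match, and Nde1 had 2 CCAAT matches. These letter matches are descriptions and not binding sites. RefSeq promoters were matched for 7 of the 9 genes, all but Tsnax and Pcm1.

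Disc1 itself was far lower in LI microglia and LI other cells. In microglia there were 597 Disc1 UMIs in 6180 WT cells and 18 in 1950 LI cells, or 20.3 and 2.20 (interval 1.31 to 3.48) CPM. The log2 ratio was -3.21 (-3.97 to -2.53), so that LI microglia held 10.8% of the WT level. At least 1 Disc1 UMI was seen in 9.08% of WT and 0.923% of LI microglia, at median depths of 4271 and 3787.5 UMIs. With every cell thinned to 1000 UMIs, which left out 104 WT and 17 LI microglia, these shares were 2.32% and 0.259%. In other cells Disc1 went from 43 UMIs in WT (12.2 CPM) to 1 UMI in LI (0.0557 CPM), a log2 ratio of -7.77 (-13.1 to -5.21). The makeup of this class differed between the libraries. Border macrophage markers were carried by 136 WT and 20 LI cells, and monocyte markers by 28 and 798. Its microglia markers outside the rule summed to 11658 and 2502 CPM, and the part of this makeup in the ratio was not tested. In neutrophils only 2 WT and 3 LI UMIs were counted among 116 and 3622 cells, too few for a ratio. The authors describe the mouse model as equivalent to a knockout. Which part of Disc1 the allele alters is not given in the sources used here, and a 3' tag outside that part would say nothing about the protein.

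The few Disc1 UMIs that remained in LI lay mostly in microglia. This class held 17.1% of all LI UMIs but 18 of the 22 Disc1 UMIs (81.8%). The summed microglia markers outside the rule stood in neutrophils at 20.2% of their microglial level in WT and 4.18% in LI. The same percentages of the microglial Disc1 level come to 4.10 CPM in WT and 0.0920 in LI. The Disc1 levels measured in neutrophils, 3.00 (0.363 to 10.8) in WT and 0.139 (0.0287 to 0.406) in LI, did not stand apart from these. With 2 WT and 3 LI UMIs, background and transcripts of the neutrophils themselves cannot be told apart. In LI other cells the 1 Disc1 UMI lay near the like value of 0.138 CPM. The WT other cells, at 12.2 CPM (8.80 to 16.4), lay above theirs of 6.60. Yet 262 of 736 WT and 185 of 2245 LI other cells held microglia markers at 0.25% to 0.5% of UMIs, below the limit of 0.5%. The WT cells with border macrophage markers also carried the microglia markers outside the rule, at 15038 CPM. The comparison therefore cannot tell whether cells other than microglia held Disc1.

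Tsnax was lower in the same LI classes. Tsnax lies at chr8:125012997-125034192 and Disc1 at chr8:125054195-125261858 (GRCm38, GENCODE M21), both on the plus strand, with 20002 bases between the end of Tsnax and the start of Disc1. Microglia held 1015 Tsnax UMIs in WT and 41 in LI, or 34.5 and 5.02 CPM, a log2 ratio of -2.78 (-3.27 to -2.33). The LI level was 14.5% of the WT level. In other cells 134 WT and 5 LI UMIs were counted, 37.9 and 0.279 CPM, a log2 ratio of -7.09 (-8.73 to -5.83). The part of the differing makeup of this class in the ratio was again not tested. In neutrophils 5 WT and 6 LI UMIs gave 7.49 (2.43 to 17.5) and 0.278 (0.102 to 0.605) CPM. The marker percentages of the microglial level come to 6.97 and 0.210, within these intervals. With so few UMIs, background and transcripts of the neutrophils themselves cannot be told apart here either. The 5 UMIs of LI other cells, at 0.279 CPM, were near the like value of 0.314. As with Disc1, most of the remaining LI UMIs (41 of 52, 78.8%) were in microglia. Disc1 and Tsnax were thus low in the same library, and which of them any further difference goes with cannot be told apart.

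Each gene was detected in few cells, so few cells held transcripts of both. In WT microglia, Disc1 was detected in 107 of 907 cells with a Tsnax UMI (11.8%, interval 9.77 to 14.1) and in 454 of 5273 cells without one (8.61%, 7.87 to 9.40). In LI microglia, 55 of 1950 cells held a UMI of either gene, and Disc1 was found in 1 of 38 cells with Tsnax and in 17 of 1912 without. With so few LI cells holding either gene, cells with both would be rare in any case. These LI counts cannot tell whether the 2 transcripts occur together or apart. Both genes were detected too rarely to tell whether many LI microglia or a few carried these transcripts. The LI cells with either gene had a median of 3738 UMIs, against 3792 for cells with neither. In WT these medians were 4747 and 4168, so that depth differed there between the cells with and without a UMI, and its part in the WT shares was not tested. Translin itself, the partner of TSNAX, was close in both libraries, with Tsn at 171 CPM in WT and 180 in LI microglia.

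Genes further from Disc1 were examined to see how far the difference reached. Of 8128 genes tested in microglia (at least 10 CPM in 1 library), 3 were at least 4-fold lower in LI, and all 3 lay within 1 Mb on chromosome 8: Disc1, Tsnax and Fam89a. The 1 Mb window and the counts by distance were added after the values were seen. All 3 genes passed the 10 CPM limit only through WT, Fam89a narrowly. Fam89a, which was chosen after its values were seen, lies on the minus strand, with its lowest coordinate 314 kb before the start of Disc1. It was at 10.0 CPM in WT (294 UMIs) and 1.47 in LI microglia (12 UMIs), a log2 ratio of -2.77 (-3.74 to -1.94). In other cells it went the opposite way, from 10 WT to 249 LI UMIs (2.83 and 13.9 CPM), a log2 ratio of 2.30 (1.39 to 3.37). The makeup of that class differed between the libraries, and its part in this ratio was not tested. Of all genes tested there, 5.54% were at least 2-fold higher in LI. The genes between Fam89a and Tsnax did not share the low ratio. Egln1, an oxygen-sensing prolyl hydroxylase gene, had a log2 ratio of -0.37 in microglia, Exoc8 of the exocyst -0.44, and Sprtn, a DNA repair protease gene, -0.53. Gnpat and 2810004N23Rik, also chosen after their values were seen, had -0.50 and -0.08.

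Downstream of Disc1 the microglial ratios were -0.40 for Sipa1l2, -0.63 for Map10 and 0.12 for Ntpcr, and Kcnk1 had 3 WT and 0 LI UMIs, too few for a ratio. In microglia, none of these neighbours reached a 2-fold difference. In other cells Sipa1l2 (-2.04), Map10 (-1.71), Ntpcr (-1.66), Egln1 (-1.19) and Kcnk1 (-6.15, interval -9.26 to -4.16, with 2 LI UMIs) were each at least 2-fold lower in LI. The cell makeup of this class differed between the libraries, and 20% of its 8350 tested genes were at least 2-fold lower. Map10 and Kcnk1 were under 10 CPM there in both libraries. Exoc8 (-0.38), Sprtn (0.10), Gnpat (-0.33) and 2810004N23Rik (-0.09) did not reach 2-fold in other cells. Over the 12 tested genes within 1 Mb other than Disc1 and Tsnax, the median log2 ratio in microglia was -0.44, against -0.19 over all genes, and 1 of the 12 was at least 2-fold lower. On chromosome 8 beyond 1 Mb, 6 of 420 genes were at least 2-fold lower and 0 at least 4-fold.

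**Figure D1:**
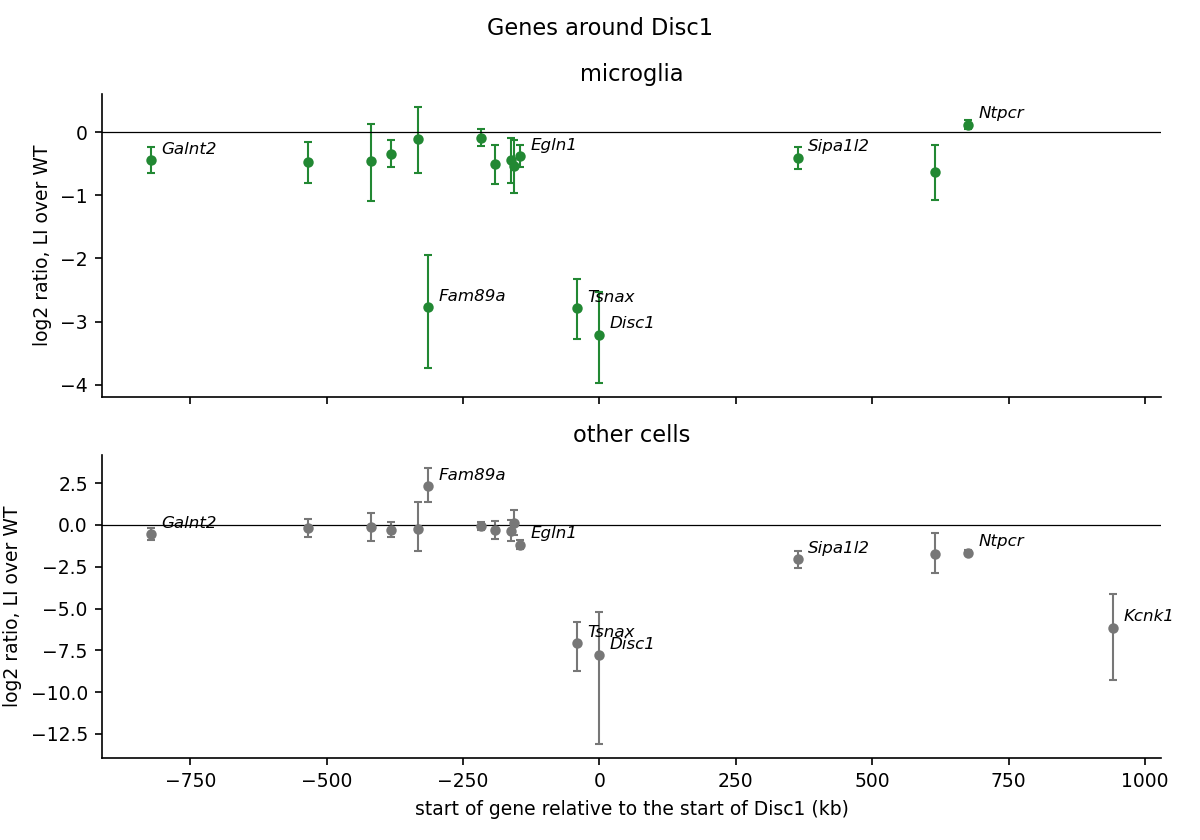
The log2 ratio of LI over WT levels in microglia (top) and other cells (bottom) for genes with at least 10 UMIs that start within 1 Mb of Disc1, against the distance of their start from the Disc1 start in kb, with 95% counting intervals as bars. Start means the lowest coordinate of a gene, whatever its strand. Disc1, Tsnax and Fam89a lie below -2 in microglia and the rest above -1, while in other cells Fam89a lies above 0 and several downstream genes lie below -1.

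The dynein adaptors did not share the low levels of Disc1 in microglia. Ndel1 was at 41.3 CPM in WT and 40.0 in LI (1213 and 327 UMIs), a log2 ratio of -0.04 (-0.23 to 0.13), and Nde1 at 29.9 and 32.2 (878 and 263 UMIs), 0.11 (-0.10 to 0.31). Both intervals include 0, and they exclude a 2-fold difference in counting terms. Pafah1b1, the most abundant of the 9 genes, was at 330 in WT and 261 in LI, a log2 ratio of -0.34 (-0.41 to -0.27).

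The enzymes and the satellite protein had ratios somewhat below 0. Gsk3b was at 221 in WT and 166 in LI microglia, a log2 ratio of -0.41 (-0.50 to -0.33). Pcm1 was at 141 and 95.6, a log2 ratio of -0.56 (-0.67 to -0.45). Both intervals lie below the median of all genes. Pde4b was at 23.3 and 17.5, -0.42 (-0.69 to -0.15), and Pde4d, the rarest, at 4.39 and 2.57 from 129 and 21 UMIs, -0.77 (-1.51 to -0.10).

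Over all genes the ratio moved with gene length. Across 8127 tested genes of known length, Spearman's rho between length and the microglial log2 ratio was -0.55, a correlation across genes of 1 pair of libraries and not over replicates. The 2032 shortest genes had a median ratio of 0.13 and the 2032 longest -0.46. Among the 200 genes nearest in length, the median was -0.49 for Pcm1, -0.45 for Gsk3b, -0.51 for Pde4b, -0.34 for Pafah1b1 and -0.34 for Ndel1, so that the ratio of Pcm1, Gsk3b, Pde4b and Pafah1b1 lay within 0.1 of genes as long. Nde1 (0.11 against -0.29), Ndel1 (-0.04 against -0.34) and Pde4d (-0.77 against -0.51) lay further from genes of like length. For Disc1 and Tsnax these medians were -0.46 and -0.15. Whether RNA quality or capture had a part in the length relation was not tested.

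Against all genes, 2 of the 8 members tested in microglia were at least 2-fold lower (Disc1 and Tsnax), where 1.57% of all tested genes were, and 0 of 8 were at least 2-fold higher, where 0.8% were. The ninth, Pde4d, was under 10 CPM in both libraries. The median log2 ratio over the 9 genes was -0.42 and without Disc1 and Tsnax -0.41. In other cells 2 of 9 were at least 2-fold lower, again Disc1 and Tsnax, against 20% of genes, and Pde4d was higher, against 5.54%. In neutrophils 1 of 7 tested was lower, Pde4b at 129 in WT and 63.1 in LI, against 22.6% of genes, and 0 of 7 were higher, against 4.08%. The shares in neutrophils and other cells are high for all genes, and the member counts there are near the background. With TMM scaling, 0.554% of genes were lower and 0.886% higher in microglia, 10.2% and 10.2% in neutrophils, and 10.4% and 15.3% in other cells, and Pde4b in neutrophils was then less than 2-fold lower. The Disc1, Tsnax and Pde4d calls held under that scaling.

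**Figure D2:**
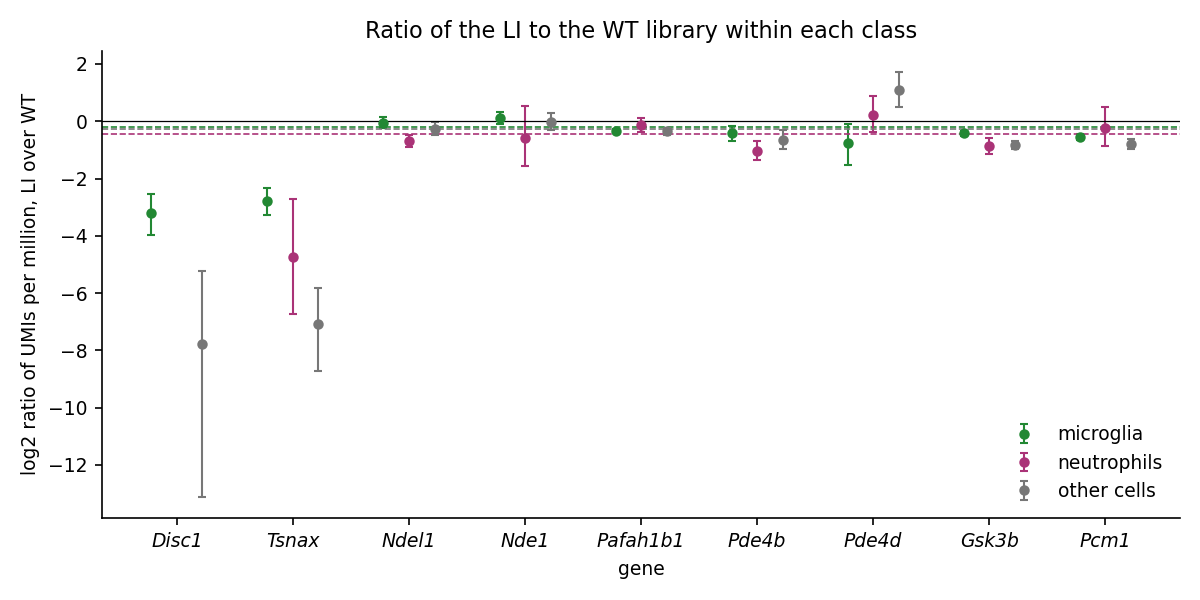
The log2 ratio of LI over WT levels for each of the 9 genes in microglia, neutrophils and other cells, with 95% counting intervals as bars, dashed lines for the median of all genes in each class and a solid line at 0. Disc1 and Tsnax lie below -2.5 in microglia and other cells, and the other 7 genes lie between -1.1 and 1.1. In neutrophils Disc1 has no point (2 and 3 UMIs), and Tsnax rests on 5 WT and 6 LI UMIs.

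Between cell classes the partners were far apart. Ndel1 was at 303 CPM in WT and 189 in LI neutrophils, against 41.3 and 40.0 in microglia, log2 ratios of neutrophils over microglia of 2.87 (2.65 to 3.09) and 2.24 (2.07 to 2.40). The adaptor Nde1, its close relative, went the other way, at 13.5 and 8.90 in neutrophils, ratios of -1.15 (-2.28 to -0.22) and -1.86 (-2.13 to -1.58). The WT value rests on 9 UMIs and lies near the median of all genes, -1.11. Pcm1 was also lower in neutrophils, at 30.0 and 25.7 against 141 and 95.6, ratios of -2.23 (-2.94 to -1.60) and -1.90 (-2.06 to -1.74). Its WT value rests on 20 UMIs. Microglia markers outside the rule stood in WT neutrophils at 20.2% of their microglial level, and the part of microglia transcripts in this value was not tested. In both libraries, then, neutrophils held more Ndel1 and less Nde1 and Pcm1 than microglia.

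Both phosphodiesterases were higher in neutrophils. Pde4b was at 129 and 63.1 against 23.3 and 17.5 in microglia, log2 ratios of 2.47 in WT and 1.85 in LI. Pde4d was at 34.5 and 39.9 against 4.39 and 2.57, ratios of 2.97 and 3.96. With only cells of at least 1000 detected genes, the LI ratios were 0.96 for Pde4b, no longer 2-fold, and 1.58 for Ndel1, and with cells thinned to 1000 UMIs the WT ratio of Pde4d was 1.08 and that of Nde1 -0.11. Pafah1b1 and Gsk3b were within 2-fold, with ratios of -0.55 and -0.36 for Pafah1b1 and -0.41 and -0.87 for Gsk3b in WT and LI.

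Of 7 members tested in both libraries, 3 were at least 2-fold higher in neutrophils, where 9.85% of 8048 genes were, and 2 were at least 2-fold lower, where 49.3% were. The median of all genes was -1.11 in WT and -1.29 in LI, so a lower level in neutrophils was common. With TMM scaling, which raised these ratios by 0.89 in WT and 1.32 in LI, 17.5% of genes were higher and 16.8% lower, Ndel1, Pde4b and Pde4d were still higher, Nde1 and Pcm1 were no longer 2-fold lower in both libraries, and Pafah1b1 and Gsk3b had ratios above 0. The WT neutrophils number 116 and hold microglia transcripts, and the part of these in the WT levels was not tested.

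**Figure D3:**
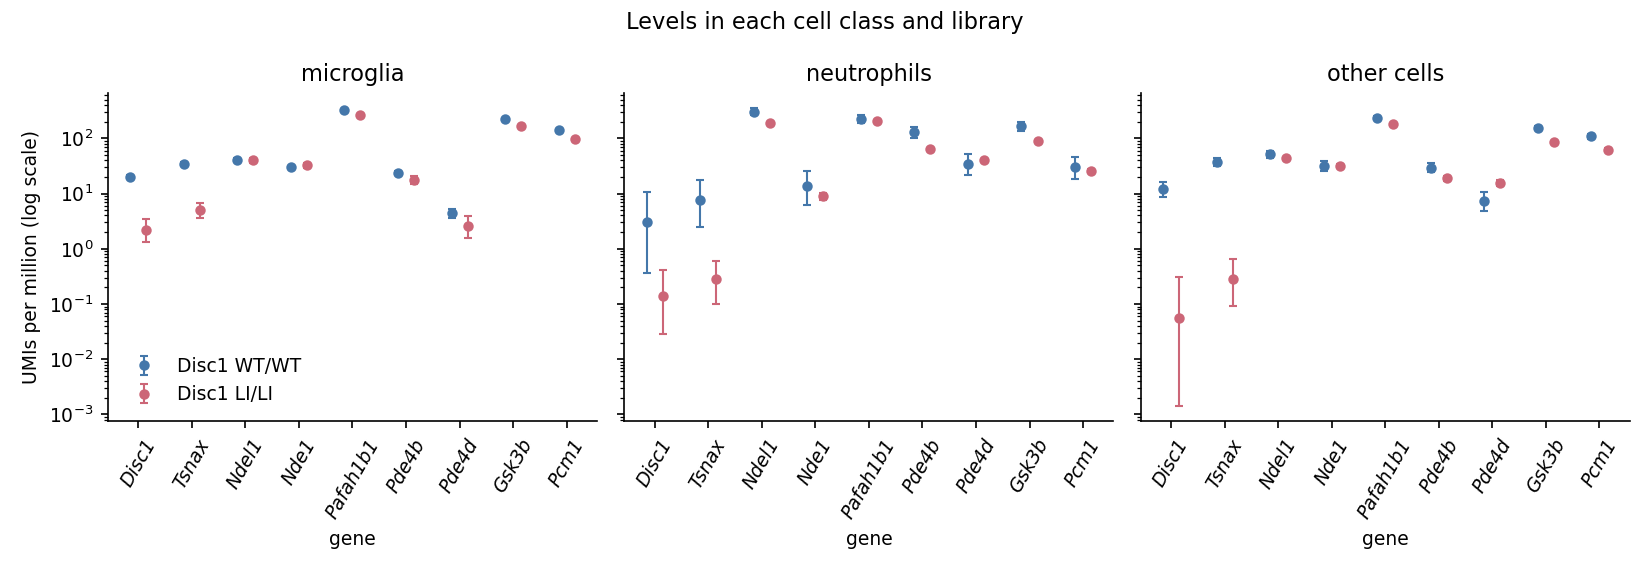
Level of each gene in microglia, neutrophils and other cells, in CPM on a log axis, with points for the WT and LI libraries and 95% counting intervals as bars. Ndel1, Pde4b and Pde4d lie higher in neutrophils than in microglia in both libraries, and Disc1 and Tsnax lie lower in LI in microglia and other cells.

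The order of the 9 genes in WT microglia ran from Pafah1b1 through Gsk3b, Pcm1, Ndel1, Tsnax, Nde1, Pde4b and Disc1 to Pde4d. Only Pde4b and Disc1 were neighbours in this order whose intervals overlapped. Each molecule gives 1 tag at its 3' end, and so these levels were not divided by gene length. In LI microglia the 6 most abundant partners kept their order without Tsnax, and Tsnax, Pde4d and Disc1 came last. The interval of Pde4d overlapped those of Tsnax (3.60 to 6.81) and Disc1 (1.31 to 3.48), which did not overlap each other.

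The 3622 LI neutrophils were divided further, in a split made after the values were seen. A group of 53 cells held at least 0.5% of UMIs from progenitor markers, 770 of the rest had no UMI of Cxcr2, the chemokine receptor of mature neutrophils, and 2799 had one, with medians of 30973, 7241.5 and 3730 UMIs. Ndel1 was at 19.3, 97.9 and 251 CPM in these 3 groups, and Pde4b at 4.99, 32.1 and 84.6. Both were lowest in the progenitor-marker cells and highest in Cxcr2 cells. Pde4d had the reverse order, at 140, 50.5 and 23.1, as did Pcm1 at 57.3, 28.9 and 20.4. Nde1 was at 14.3, 11.6 and 6.99, the first 2 with overlapping intervals. Pafah1b1 (136, 197 and 215) and Gsk3b (51.7, 84.8 and 97.7) varied less.

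In the WT library the same split left 1, 22 and 93 neutrophils. Ndel1 was at 141 (89.4 to 212) in WT cells without Cxcr2 and at 371 (319 to 430) in those with it, the same order as in LI. Pde4b was at 61.3 and 158, and Pde4d at 49.1 and 24.9 with overlapping intervals. All cells of a library share 1 pool and 1 sort, and depth differed between these groups.

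**Figure D4:**
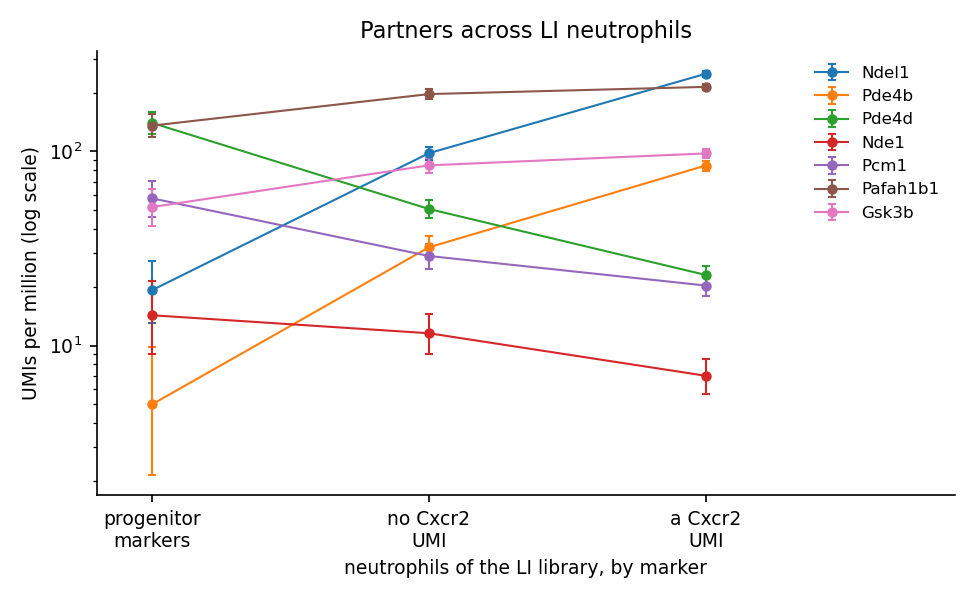
Levels of 7 partners in LI neutrophils with progenitor markers (53 cells), without a Cxcr2 UMI (770 cells) and with one (2799 cells), in CPM on a log axis with 95% counting intervals. Ndel1 and Pde4b lie highest in cells with a Cxcr2 UMI, and Pde4d and Pcm1 in cells with progenitor markers.

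Among other cells, Pde4d was the 1 partner at least 2-fold higher in LI, at 7.35 CPM in WT (26 UMIs) and 15.6 in LI (279 UMIs), a log2 ratio of 1.08 (0.50 to 1.72). Of the 279 LI UMIs, 243 were in 106 cells with progenitor markers, a level of 83.2 CPM (73.1 to 94.3). The 798 LI cells with monocyte markers held 3 Pde4d UMIs, 0.463 CPM. The WT library held 4 progenitor-marker cells in this class with 1 Pde4d UMI, 8.05 CPM (0.20 to 44.9), too few for a comparison. Among neutrophils, the 1 WT cell with progenitor markers held 3 Pde4d UMIs, 137 CPM (28.2 to 400), and 53 LI cells were at 140. With 1 WT cell, this too is too few for a comparison. The progenitor markers summed to 530 CPM in WT and 6230 in LI other cells, with all 6 detected in each, and the part of these cells in the Pde4d difference was not tested. In 1098 LI and 507 WT other cells placed in none of these marker groups, Pde4d was at 3.62 and 6.15. The microglia markers outside the rule summed to 4349 CPM in these LI cells and 13374 in these WT cells. The makeup of this remainder thus differed between the libraries too. Pde4b ran opposite to Pde4d in LI, at 3.77 in progenitor-marker cells and 17.9 in monocyte-marker cells.

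Nde1 was higher in cells with a high share of G2/M genes, and its relative Ndel1 was not. In LI other cells, 308 cells with at least 0.2% of UMIs from 17 G2/M genes held Nde1 at 65.1 CPM and the other 1937 cells at 19.7, a log2 ratio of 1.73 (1.48 to 1.97). The corresponding ratio was 1.51 (0.83 to 2.14) in WT other cells with 23 such cells, 2.01 (1.57 to 2.43) in LI neutrophils with 156, and 2.04 (1.23 to 2.75) in WT microglia with 13. Nde1 was thus higher in these cells in each comparison given. Ndel1 had ratios of -0.18 (-0.42 to 0.07) in LI other cells, 0.06 (-0.69 to 0.74) in WT other cells and -2.86 (-3.18 to -2.57) in LI neutrophils. Of the 156 G2/M-high LI neutrophils, 12 had progenitor markers, and of the rest 102 had no Cxcr2 UMI and 42 had one. Ndel1 differed between these groups, at 19.3, 97.9 and 251 CPM over all their cells. So did Pcm1, at 57.3, 28.9 and 20.4, and Nde1, at 14.3, 11.6 and 6.99, the first 2 with overlapping intervals. The part of these differences in the LI neutrophil ratios of Ndel1, Pcm1 and Nde1 was not tested. In G2/M-high cells Pcm1 was higher among LI other cells and LI neutrophils, by 0.65 (0.47 to 0.82) and 1.22 (0.94 to 1.49) on the log2 scale. In WT microglia its ratio was 0.65 (0.07 to 1.17), and in WT other cells 0.30 (-0.17 to 0.74), an interval that includes 0. The G2/M-high cells had more UMIs, with a median of 14022 against 6089 in LI other cells.

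Over whole libraries, the ratios of the partners lay apart from those within classes. Without regard to class, the LI over WT log2 ratio was 1.19 for Ndel1, 0.57 for Pde4b, 2.20 for Pde4d, -0.48 for Nde1, -1.07 for Gsk3b and -1.39 for Pcm1. With the class levels of LI weighted by the class shares of UMIs in WT, the ratios were -0.14, -0.49, -0.18, 0.09, -0.45 and -0.58 in the same order. For Ndel1, Pde4b, Pde4d and Nde1 the sign changed, and Gsk3b and Pcm1 stayed below 0. Disc1 went from -5.37 to -3.30 and Tsnax from -4.98 to -2.96, both still far below 0. In the LI library 78.7% of Ndel1 UMIs, 74.0% of Pde4b UMIs and 74.2% of Pde4d UMIs came from neutrophils.

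**Figure D5:**
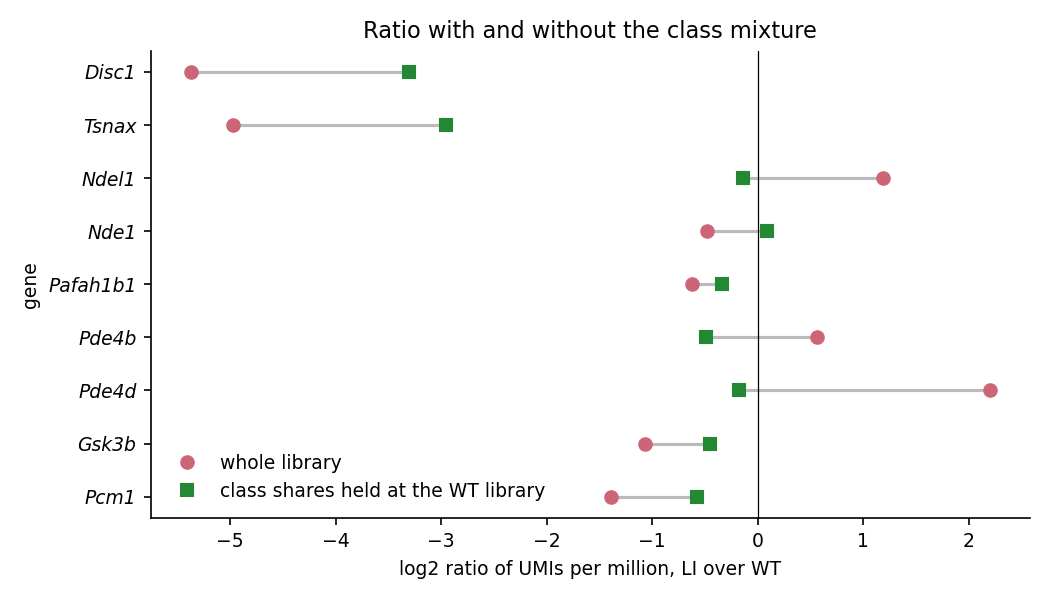
The log2 ratio of LI over WT for each gene in the whole libraries (circles) and with the class shares held at those of the WT library (squares). Ndel1, Pde4b and Pde4d lie above 0 in whole libraries and below 0 with the shares held, and Disc1 and Tsnax lie below -2.9 in both.

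Further genes of the DISC1 pathways were read in microglia against 1.57% of all tested genes at least 2-fold lower in LI and 0.8% higher. Of 17 tested dynein and dynactin genes 0 were at least 2-fold lower or higher, with a median log2 ratio of -0.12 against -0.19 for all genes. Of 7 tested centrosome and satellite genes 1 was lower, Cdk5rap2 at 21.8 in WT and 9.91 in LI, with a list median of -0.59, and Akap9 and Hook3, which anchor cargo at the centrosome and Golgi, had -0.59 and -0.64. Genes of like length were not used as a background for these lists, so the part of gene length in their medians was not tested. None of 8 PDE4 and cAMP genes (median -0.31), of 7 GSK3 and Wnt genes (-0.14) or of 10 actin, kinesin and mitochondrial genes (-0.36) reached 2-fold. Apc, the scaffold of the beta-catenin destruction complex, was nearest, at 108 in WT and 54.3 in LI, a log2 ratio of -0.99. Beside Tsnax, Tsn had 0.07.

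Across the 6 sums of library and class, the genes whose log2 levels followed Disc1 most closely among 9481 were Herc1 (Pearson's r = 0.989), Usp9x (0.988), Tsnax (0.986), Fam13b (0.983) and Gsap (0.981). For Pde4b they were Hipk1 (0.998), Cdkn1b (0.994) and Riok3 (0.992), and for Nde1 Tor3a (0.999), Eci1 (0.999) and Ppan (0.998). These 6 points share 2 libraries, and the values describe likeness of level only. Tsnax had the lowest level in LI other cells among the 5 genes most like Disc1, at 0.279 CPM, where the other 4 lay between 15.1 and 39.1.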

How the data were processed

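Single-cell 3' RNA sequencing (10x Genomics, chip B or G, which of them per library is not given in the sources used here) was performed on brain cells dissociated with actinomycin D (Act-Seq). The authors mapped reads to mm10 with STAR and deposited raw UMI counts per gene and barcode; per the file headers Cell Ranger 6.1.2 was used, and the submitters' processing notes also name Seurat 3.0.1. The gene annotation used for counting was not given in the sources used here. The 2 libraries held 7038 and 7834 barcodes and 33601957 and 47731571 UMIs, of which 6 and 17 barcodes were left out by the cell filter. Counts were summed over the cells of a class and divided by their total. Ratios have Clopper-Pearson, levels exact Poisson and shares exact binomial 95% intervals. A count of 0 was replaced by a floor of 3 counts per class sum, and no ratio was given where both counts were at or under it. Doublets were not removed. Gene positions and lengths came from GENCODE M21, matched by identifier for 32235 of 32285 genes. Genes were named if they were members, the 4 nearest genes with at least 10 UMIs on either side of Disc1, pathway genes at least 2-fold apart with at least 50 CPM (UMIs per 1000000), or most alike in level. Cdk5rap2, Apc, Akap9, Hook3 and Tsn are not covered by that rule, and their values were known when they were added. The members, gene lists and alternatives were chosen with earlier results of these data known, and the promoter motifs were too. The background from microglia markers, the 1 Mb window and the counts by distance from Disc1 were added after the values were seen. The interval method was tested on simulated data. Software was edgeR 4.0.16 (for TMM factors only) in R 4.3.3, and scipy 1.17.1, matplotlib 3.10.9, numpy 2.4.6 and pandas 2.3.3 in Python 3.11.15.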

Additional observations from a re-analysis of the deposited data

Results flagged for a closer look

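Signs were compared for the members, Fam89a and the nearest neighbours of Disc1, and Fam89a was chosen after its values were seen. In 3 of these genes the LI over WT ratio had opposite signs in microglia and in another class. For each, both counting intervals lay on 1 side of 0. The share of all genes with opposite signs was not counted, so whether 3 is unusual cannot be told. Of all tested genes, 20% in other cells and 22.6% in neutrophils were at least 2-fold lower in LI, and 5.54% and 4.08% at least 2-fold higher. The makeup of other cells differed between the libraries, and its part in these signs was not tested. Pde4d had -0.77 in microglia and 1.08 in other cells. Ntpcr had 0.12 in microglia, -0.97 in neutrophils and -1.66 in other cells. Fam89a had -2.77 in microglia and 2.30 in other cells. The difference between classes was not tested, since each genotype has 1 library.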

How the results depend on the processing

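No paired analysis was possible because each genotype has 1 library, and for the same reason no replicate could be left out. Over 13 alternatives in cell filter, class limit, scaling and depth, the microglial log2 ratio of LI over WT ran from -3.26 to -3.07 for Disc1, from -3.45 to -2.65 for Tsnax and from -0.46 to -0.28 for the median of the 9 genes, and 2 genes were at least 2-fold lower and 0 higher each time. The Tsnax value of -3.45, with cells thinned to 1000 UMIs, lay outside the main counting interval. The ratios of Ndel1 (-0.08 to 0.09) and Nde1 (-0.01 to 0.24) took both signs. Pde4d, under 10 CPM and so outside that count, had -1.41 with thinning, more than 2-fold lower, against -0.77. With at least 50 CPM, 0.844% of genes were 2-fold lower in LI microglia, and with no minimum and 0.5 counts added, 6.34% were lower and 10.3% higher, which includes genes of very low count. For neutrophils over microglia, TMM scaling turned Pafah1b1 to 0.33 in WT and 0.96 in LI and Gsk3b to 0.48 in WT and 0.45 in LI, and thinning turned Disc1 in WT to 0.12, a value that rests on the floor for 0 counts. With at least 1000 genes per cell, Pde4b fell to 0.96 and Ndel1 to 1.58 in LI, and with thinning Pde4d fell to 1.08 in WT, while its LI ratio was 2.99 as a mean over cells. The cause of these shifts was not tested. Of 337 values for single genes, 8 changed sign, 3 of them near 0 and within the main interval (Ndel1 to 0.09 with TMM and 0.06 as a mean over cells, and Nde1 to -0.01 with thinning). In all, 287 stayed within the main interval, and 45 others moved outside it without a change of sign. The precision of Disc1, Tsnax and Pde4d is set by their few UMIs, and of WT neutrophils by their 116 cells.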
